A study of Homo sapiens with 4 samples.

Results

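The genes described here are 33 genes of sterol and fatty acid synthesis, taken by name from the 25680 gene rows of each count table. They comprise 19 enzymes of the route from acetyl-CoA to cholesterol, 6 regulators or sterol-binding proteins, and 8 genes of fatty acid and glycerolipid synthesis. All 33 were found under their current symbols, and all 33 passed the filter on low counts, so no member is left out below. They are grouped below by their place in the pathway. The libraries came from THP-1 cells, an established human monocytic leukaemia line. One group was transduced with a lentivirus carrying a short hairpin RNA against PIWIL4 (shPIWIL4, 2 libraries), and the other with a lentivirus carrying a scrambled hairpin (Scrambled, 2 libraries). In both groups the transduced cells were sorted by flow cytometry 48 hours after transduction, and RNA was sequenced in bulk. The treatment label of the shPIWIL4 libraries also holds the word scrambled, so groups were taken from the sample titles. The titles number the libraries of each group exp. rep1 and exp. rep2, and the labels do not say whether these were separate cultures. The labels name no other hairpin against PIWIL4, so effects of lower PIWIL4 and other effects of this hairpin cannot be told apart.

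Cholesterol is built from acetyl-CoA through mevalonate, isoprenoids, squalene and lanosterol, and fatty acids from acetyl-CoA through malonyl-CoA. The transcription factor SREBP-2, made from SREBF2, mainly drives the sterol genes, and SREBP-1, made from SREBF1, mainly the fatty acid genes. Both are held in the endoplasmic reticulum by INSIG proteins when sterols are plentiful, and are carried by SCAP to the Golgi for cleavage when sterols are low. Proliferating leukaemia cells use the products for membranes and for prenyl groups on signalling proteins.

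Total counts were 50689304 and 53657246 in shPIWIL4 libraries 1 and 2, and 31458079 and 51655687 in Scrambled libraries 1 and 2. PIWIL4 itself had 11.7 and 11.0 TPM (a level scaled by gene length and library size) in shPIWIL4 libraries, against 23.7 and 23.6 TPM in Scrambled libraries. It fell by 1.10 on the log2 scale (SE 0.09; edgeR quasi-likelihood test, adjusted p = 1.3e-05). Among 12 monocytic leukaemia markers 11 were over 1 TPM in every library, and CSF2RA was listed at 0 in every library. The summed TPM of these markers was 3661 and 3501 in shPIWIL4 and 1091 and 1160 in Scrambled, a difference that lay mostly in the lysozyme gene LYZ, at 2465 TPM on average in shPIWIL4 against 195 TPM in Scrambled. CD68 and FCGR1A were also higher in shPIWIL4, and MPO, CSF1R and PTPRC lower. T cell, erythroid and epithelial marker lists summed to under 1 TPM in each library. The B cell marker CD79B was lower, at 4.92 TPM on average in shPIWIL4 and 9.34 TPM in Scrambled. The part of these marker differences in the results below was not tested. In the hepatocyte list 3 of 4 markers were under 1 TPM in every library, and APOA2 averaged 2.51 TPM in shPIWIL4 and 3.04 TPM in Scrambled. In bulk RNA, fewer cells of a type and less RNA per cell cannot be told apart.

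Of the 33 genes, 27 were lower in shPIWIL4 cells, 2 were higher and 4 were not called at an adjusted p under 0.05. Among all 16108 genes tested, 29.1% were called lower and 28.7% higher (57.7% in either direction). The median log2 fold change was -0.87 over the 33 genes and -0.0034 over all genes tested. By branch, 17 of 19 sterol enzymes fell and 1 rose, with a median of -0.97. In the fatty acid branch 6 of 8 genes fell and 0 rose, with a median of -0.82, and among the regulators 4 of 6 fell and 1 rose, with a median of -0.43. A fall of at least 2-fold was found in 8 sterol enzymes, 3 fatty acid genes and 1 regulator, where 11.3% of all genes tested fell that far. These 3 fatty acid genes include ELOVL6, which had 5 to 17 counts per library. Under a stricter filter (minimum count 100), which drops ELOVL6, the median of the other 7 fatty acid genes was -0.71. In CPM, which is counts scaled by library size and TMM factor but not by gene length, both shPIWIL4 libraries lay below both Scrambled libraries for 28 of the 33 genes, where this held for 39.5% of all genes tested. Counting either direction, 2 further members (PMVK and SCAP) were apart, against 78.6% of all genes tested.

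**Figure D1:**
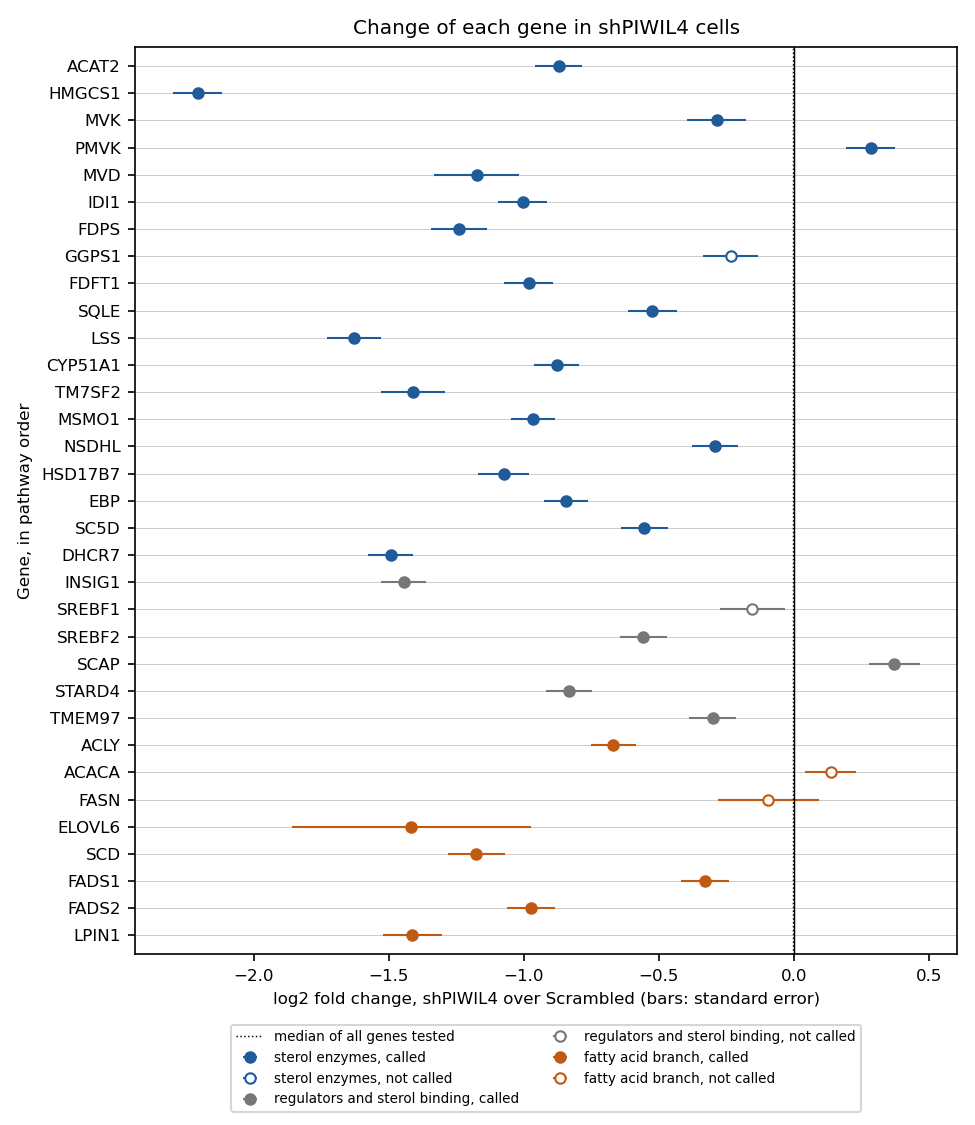
Log2 fold change of each of the 33 genes, shPIWIL4 over Scrambled, with its standard error, in pathway order from top to bottom. Filled points were called and open points (GGPS1, SREBF1, ACACA and FASN) were not; SCAP and PMVK are the called points to the right of 0, and HMGCS1 lies farthest to the left at -2.21.

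Promoter sequences were set beside these values because most members moved together. RefSeq windows of 300 bases (GRCh38.p14, 250 bases before the transcription start and 50 after it) were matched for 29 of the 33 genes, and not for ACAT2, FDFT1, SQLE and FASN. They were searched on both strands for the NF-Y box CCAAT, the SP1 box GGGCGG, the E-box CACGTG and the sterol response element TCACNCCAC; an E-box can share letters with the end of a sterol response element. NF-Y and SP1 are general promoter factors known to act together with SREBPs. The letters CCAAT occurred in 18 of 29 member windows (62.1%) and in 36.1% of the 11150 windows of genes tested here. They were found in 12 of 16 sterol enzyme windows, 4 of 6 regulator windows and 2 of 7 fatty acid windows. SP1 boxes were found in 26 of 29 member windows (89.7%) against 66.8% of windows of tested genes, and E-boxes in 13.8% against 9.87%. The strict sterol response element was found in 1 member window, that of SREBF2, and in 1.17% of windows of tested genes. A match describes these letters in this window and not a bound site.

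The windows of 5 members are shown, each as the 250 bases before the start, read 5′ to 3′ along the gene, with CCAAT (or ATTGG on the other strand) and TCACNCCAC in capitals. HMGCS1 and DHCR7 stand for sterol enzymes with large falls, SCD for the fatty acid branch, SREBF2 for the window with the sterol response element, and PMVK for a gene that rose and has neither motif.
HMGCS1 (chr5:43313413-43313662, minus strand): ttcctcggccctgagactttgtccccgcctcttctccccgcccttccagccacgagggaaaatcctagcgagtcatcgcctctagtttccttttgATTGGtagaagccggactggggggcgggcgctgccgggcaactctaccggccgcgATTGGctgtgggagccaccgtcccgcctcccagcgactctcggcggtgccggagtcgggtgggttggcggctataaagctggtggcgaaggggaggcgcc
DHCR7 (chr11:71448394-71448643, minus strand): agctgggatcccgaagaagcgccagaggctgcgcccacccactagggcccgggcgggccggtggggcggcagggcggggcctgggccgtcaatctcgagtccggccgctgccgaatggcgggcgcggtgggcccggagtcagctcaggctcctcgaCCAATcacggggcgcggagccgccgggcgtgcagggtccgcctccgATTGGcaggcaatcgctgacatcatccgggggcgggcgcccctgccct
SCD (chr10:100346983-100347232, plus strand): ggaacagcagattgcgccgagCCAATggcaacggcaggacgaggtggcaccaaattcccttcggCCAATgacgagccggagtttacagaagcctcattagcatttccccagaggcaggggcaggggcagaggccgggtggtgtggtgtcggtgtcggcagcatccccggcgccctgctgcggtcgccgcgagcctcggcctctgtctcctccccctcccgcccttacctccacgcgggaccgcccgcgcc
SREBF2 (chr22:41832855-41833104, plus strand): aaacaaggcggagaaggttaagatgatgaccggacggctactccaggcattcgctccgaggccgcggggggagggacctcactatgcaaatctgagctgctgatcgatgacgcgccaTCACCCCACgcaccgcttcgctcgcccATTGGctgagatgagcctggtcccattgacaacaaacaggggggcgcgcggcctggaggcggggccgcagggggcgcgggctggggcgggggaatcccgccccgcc
PMVK (chr1:154936720-154936969, minus strand): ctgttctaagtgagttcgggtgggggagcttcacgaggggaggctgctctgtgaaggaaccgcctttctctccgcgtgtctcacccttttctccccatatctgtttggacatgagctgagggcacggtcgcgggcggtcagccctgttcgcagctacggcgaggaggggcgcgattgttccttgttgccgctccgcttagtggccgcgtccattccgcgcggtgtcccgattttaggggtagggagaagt

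All 18 members with a matched window that holds CCAAT were called lower. FASN, which was not called, and ACAT2, FDFT1 and SQLE, which fell, are not among the windows compared. Of the 11 members without it, 6 were lower (IDI1, CYP51A1, ELOVL6, FADS1, FADS2 and LPIN1), 2 were higher (PMVK and SCAP) and 3 were not called (GGPS1, SREBF1 and ACACA). Over all genes tested with a window, 26.6% of those with CCAAT were lower, against 29.2% of those without. The split depends on the setting. The calls of MVK, NSDHL and TMEM97, which have CCAAT, were lost in 8, 3 and 3 of 13 other settings. Calls also changed among the members without it, with GGPS1 called lower in 6 settings and FADS1 losing its call in 2. The pattern among the members was noticed after their values were seen and is given as a description.

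The mevalonate part of the route makes the isoprenoid precursor from acetyl-CoA. HMGCS1, the cytosolic HMG-CoA synthase, had 78.9 and 81.2 TPM in shPIWIL4 libraries 1 and 2, against 355 and 363 TPM in Scrambled libraries. Its groups were far apart and its replicates close. HMGCS1 fell by 2.21 on the log2 scale (SE 0.09), to 21.6% of its Scrambled level, the largest of the 33 falls (adjusted p = 3.4e-07). By mean TPM it held rank 14 of the 33 genes in shPIWIL4 libraries and rank 4 in Scrambled libraries. ACAT2, the cytosolic thiolase that precedes it, had 214 and 222 TPM in shPIWIL4 against 397 and 376 TPM in Scrambled, and fell by 0.87 (SE 0.09). MVD, which makes isopentenyl diphosphate, had 61.4 and 40.8 TPM in shPIWIL4, against 101 and 122 TPM in Scrambled. The groups did not overlap, though the 2 shPIWIL4 libraries differed 1.51-fold, and MVD fell by 1.18 (SE 0.16, adjusted p = 2.0e-04).

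The 2 kinases of this part moved less and in opposite directions. PMVK, phosphomevalonate kinase, had 51.2 and 47.5 TPM in shPIWIL4 and 39.1 and 39.5 TPM in Scrambled, and was the sterol enzyme that rose (log2 fold change 0.29, SE 0.09, adjusted p = 0.023). Its call was lost without Scrambled library 1 (0.33), without Scrambled library 2 (0.27) and under upper-quartile scaling (0.16). In each fit without 1 library, here and below, that group has 1 library left, which is assumed to vary like the pair of the other group. MVK, mevalonate kinase, had 30.7 and 24.3 TPM in shPIWIL4 and 31.5 and 33.4 TPM in Scrambled. Its log2 fold change of -0.29 (SE 0.11) had an adjusted p of 0.049, and the call was lost without Scrambled library 1 (-0.28), without Scrambled library 2 (-0.26) and without shPIWIL4 library 2 (-0.15). Over all 13 other settings the MVK call was lost in 8, with the direction kept.

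Isoprenoid enzymes join the units into longer chains, which feed sterols, dolichol, ubiquinone and protein prenylation. FDPS, farnesyl diphosphate synthase, was the most abundant of the 33 genes in every library, with 597 and 664 TPM in shPIWIL4, against 1481 and 1412 TPM in Scrambled. It fell by 1.24 (SE 0.10, adjusted p = 1.3e-05). FDPS made up 32.6% and 35.4% of the summed TPM of the 19 sterol enzymes in shPIWIL4 libraries, and 38.5% and 36.7% in Scrambled libraries. HMGCS1 made up 4.30% and 4.32% of that sum in shPIWIL4, against 9.22% and 9.43% in Scrambled. IDI1, the isomerase that supplies dimethylallyl diphosphate, fell to 122 and 111 TPM in shPIWIL4, against 210 and 244 TPM in Scrambled, which is 49.9% of its Scrambled level. GGPS1, which diverts farnesyl diphosphate to geranylgeranyl diphosphate and so away from sterols, was the sterol-list enzyme that was not called. It had 27.6 and 31.7 TPM in shPIWIL4 and 33.9 TPM in each Scrambled library, a log2 fold change of -0.23 (SE 0.10, adjusted p = 0.074). GGPS1 was called lower in 6 of 13 other settings. These included upper-quartile scaling (-0.36), library totals (-0.28) and the stricter filter (-0.28). Without shPIWIL4 library 2 its value was -0.36.

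All 11 members that act from squalene synthesis to cholesterol fell. The largest falls were in LSS, lanosterol synthase, DHCR7, which acts at the end of the route, and TM7SF2, a sterol C14 reductase. LSS had 49.7 and 40.9 TPM in shPIWIL4, against 129 and 143 TPM in Scrambled. DHCR7 had 46.1 and 40.8 TPM in shPIWIL4, against 116 and 121 TPM in Scrambled. Both groups were apart in each gene, with log2 fold changes of -1.63 (SE 0.10) for LSS and -1.49 (SE 0.08) for DHCR7. TM7SF2 averaged 13.5 ± 2.0 TPM in shPIWIL4 and 34.6 ± 3.4 TPM in Scrambled (SD, n = 2 each), and fell by 1.41 (SE 0.12). Among 12 accessory genes of sterol synthesis, which are not members, 4 rose and 5 fell. LBR, among those that rose, averaged 168 TPM in shPIWIL4 and 130 TPM in Scrambled (log2 fold change 0.32, SE 0.09).

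Falls of 1.8- to 2.1-fold were found for 5 of the other post-squalene genes. FDFT1, squalene synthase, had 99.8 and 105 TPM in shPIWIL4, against 199.7 and 192 TPM in Scrambled, and fell by 0.98. CYP51A1, the lanosterol demethylase, had 71.9 and 75.4 TPM in shPIWIL4, against 128 and 134 TPM in Scrambled, and fell by 0.88. MSMO1, a sterol methyl oxidase, had 48.4 and 47.4 TPM in shPIWIL4, against 86.8 and 94.6 TPM in Scrambled, and fell by 0.97. The groups were apart in each of these genes, as in the next pair. HSD17B7, a keto reductase of sterol demethylation, had 30.4 and 32.0 TPM in shPIWIL4, against 65.3 and 62.2 TPM in Scrambled, and fell by 1.07. EBP, the sterol isomerase, had 108 and 111 TPM in shPIWIL4, against 192 and 189 TPM in Scrambled, and fell by 0.84. The standard errors of these 5 changes lay between 0.08 and 0.10. HSD17B7 has a named copy, HSD17B7P2, in the tables, with 205 and 214 counts in shPIWIL4 and 438 and 627 in Scrambled. Reads may have been split between these copies, so the HSD17B7 value is uncertain.

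The remaining 3 post-squalene enzymes changed least. SQLE, squalene epoxidase, had 102 and 111 TPM in shPIWIL4, against 151 and 147 TPM in Scrambled, and fell by 0.52 (SE 0.09). SC5D, the lathosterol desaturase, averaged 23.0 ± 1.4 TPM in shPIWIL4 and 32.7 ± 3.1 TPM in Scrambled (SD, n = 2 each), and fell by 0.55 (SE 0.09). NSDHL, a decarboxylating dehydrogenase, had 56.2 and 57.4 TPM in shPIWIL4, against 68.4 and 66.4 TPM in Scrambled. Its log2 fold change was -0.29 (SE 0.09, adjusted p = 0.016), and its call was lost without Scrambled library 1 (-0.22) and without Scrambled library 2 (-0.33).

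**Figure D2:**
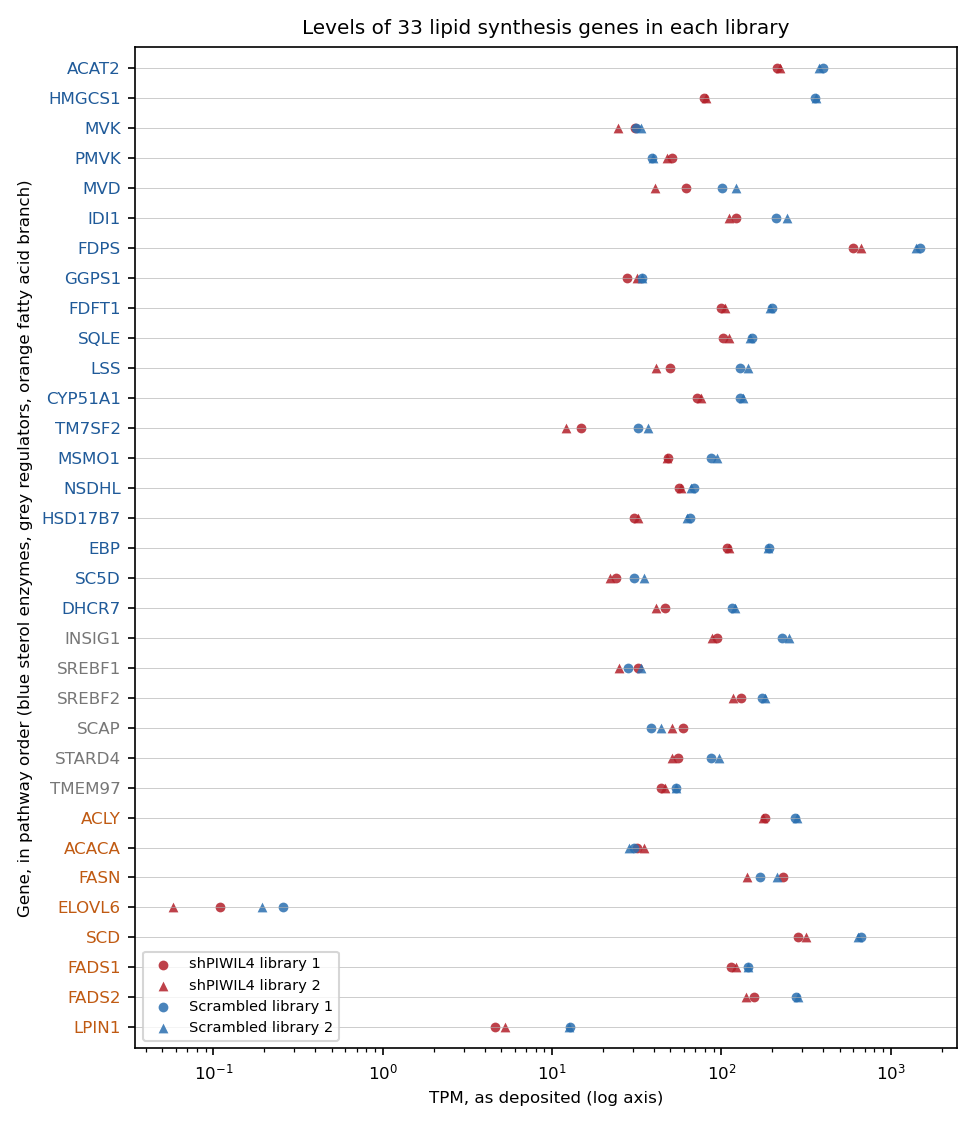
TPM of each gene in each of the 4 libraries on a log axis, with shPIWIL4 libraries in red and Scrambled libraries in blue, circles for library 1 and triangles for library 2. The red points lie left of the blue ones for most sterol enzymes, while the colours mix for FASN and SREBF1, and ELOVL6 lies far below the other genes.

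The regulators did not move as a block. INSIG1, which retains SCAP in the endoplasmic reticulum, had 93.7 and 87.6 TPM in shPIWIL4, against 229.3 and 249.3 TPM in Scrambled. It fell by 1.45 (SE 0.08, adjusted p = 1.8e-06), close in size to DHCR7. SREBF2 had 131 and 118 TPM in shPIWIL4, against 173 and 182 TPM in Scrambled, and fell by 0.56 (SE 0.09, adjusted p = 5.2e-04). SREBF1 had 32.3 and 24.7 TPM in shPIWIL4 and 27.9 and 33.4 TPM in Scrambled. Its groups overlapped, and its log2 fold change of -0.15 (SE 0.12) was not called (adjusted p = 0.31). Without shPIWIL4 library 1 SREBF1 was called lower (-0.32), and without shPIWIL4 library 2 its value was 0.010. Whether SREBF1 and SREBF2 differed in their response was not tested.

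SCAP, the SREBP escort protein, rose, with 59.6 and 51.1 TPM in shPIWIL4 and 38.6 and 44.2 TPM in Scrambled (log2 fold change 0.37, SE 0.09, adjusted p = 7.3e-03). Its call was lost without Scrambled library 1 (0.33). STARD4, a cytosolic sterol carrier, had 55.3 and 51.1 TPM in shPIWIL4, against 86.7 and 96.8 TPM in Scrambled, and fell by 0.83 (SE 0.08). TMEM97, a sterol-responsive membrane protein, had 43.8 and 46.6 TPM in shPIWIL4, against 54.2 and 53.9 TPM in Scrambled. TMEM97 fell by 0.30 (SE 0.09, adjusted p = 0.014), and its call was lost without Scrambled library 1 (-0.25) and without Scrambled library 2 (-0.32). Without Scrambled library 1, 3 of the 6 regulators were called, in place of 5.

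Of the 3 genes that make the precursors and the chain, ACLY fell, and FASN and ACACA were not called. FASN, the fatty acid synthase, had 231 and 141 TPM in shPIWIL4 and 170 and 214 TPM in Scrambled. The groups overlapped, the 2 shPIWIL4 libraries lay outside the range of the Scrambled ones on either side, and the log2 fold change of -0.09 (SE 0.19) was not called (adjusted p = 0.69). Without shPIWIL4 library 1 FASN was called lower (-0.45), and without shPIWIL4 library 2 its value was 0.20. Both fits rest on 1 shPIWIL4 library and take the spread from the Scrambled pair, which differed less between its libraries, so the call does not show that FASN fell. ACACA, the acetyl-CoA carboxylase that makes malonyl-CoA, had 31.7 and 34.9 TPM in shPIWIL4 and 30.3 and 28.5 TPM in Scrambled, and was not called (0.14, SE 0.09, adjusted p = 0.25), with groups that overlapped in CPM. Without shPIWIL4 library 1 ACACA was called higher (0.24). ACLY, which makes cytosolic acetyl-CoA for both branches, had 182 and 177 TPM in shPIWIL4, against 272 and 280 TPM in Scrambled, and fell by 0.67 (SE 0.08, adjusted p = 1.5e-04).

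The 3 fatty acid desaturase genes among the members were called lower. SCD, the stearoyl-CoA desaturase, was the second most abundant of the 33 genes, with 282 and 314 TPM in shPIWIL4 against 665 and 640 TPM in Scrambled. It fell by 1.18 (SE 0.10, adjusted p = 1.9e-05). FADS2, the delta-6 desaturase, had 155 and 139 TPM in shPIWIL4, against 274 and 284 TPM in Scrambled, and fell by 0.97 (SE 0.09). FADS1, the neighbouring delta-5 desaturase gene, had 114 and 122 TPM in shPIWIL4, against 144 TPM in each Scrambled library, and fell by 0.33 (SE 0.09, adjusted p = 0.010). Without Scrambled library 1 the FADS1 change was -0.28 and was not called.

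ELOVL6, an elongase of long-chain fatty acids, was near the limit of detection, with 9 and 5 counts in shPIWIL4 and 14 and 17 counts in Scrambled. Its log2 fold change of -1.42 had an SE of 0.44 and an adjusted p of 0.021. The ELOVL6 call was lost without Scrambled library 1 (-1.20), without shPIWIL4 library 2 (-1.03) and under DESeq2 (-1.45, adjusted p = 0.18). LPIN1, a phosphatidate phosphatase of glycerolipid synthesis, had 4.59 and 5.24 TPM in shPIWIL4, against 12.8 and 12.6 TPM in Scrambled. LPIN1 fell by 1.41 (SE 0.11, adjusted p = 8.0e-06), as far as TM7SF2.

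Summed over genes, both branches were lower, and the sterol branch by more. The 19 sterol enzymes summed to 1835 and 1878 TPM in shPIWIL4, against 3847 and 3844 TPM in Scrambled. The 8 fatty acid genes summed to 999.9 and 933 TPM in shPIWIL4, against 1569 and 1604 TPM in Scrambled. In that sum SCD, the most abundant in Scrambled, averaged 298 TPM in shPIWIL4 and 653 TPM in Scrambled. The 2 genes not called were FASN, at 186 TPM in shPIWIL4 and 192 TPM in Scrambled, and ACACA, at 33.3 and 29.4 TPM. The ratio of the sterol sum to the fatty acid sum was 1.84 and 2.01 in shPIWIL4, against 2.45 and 2.40 in Scrambled, with no overlap between the groups. As a share of the reads counted to genes, sterol enzymes took 0.201% and 0.205% in shPIWIL4, against 0.482% and 0.479% in Scrambled. Fatty acid genes took 0.275% and 0.248% in shPIWIL4, against 0.429% and 0.436% in Scrambled. These sums are descriptions, and the difference between the branches was not tested.

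**Figure D3:**
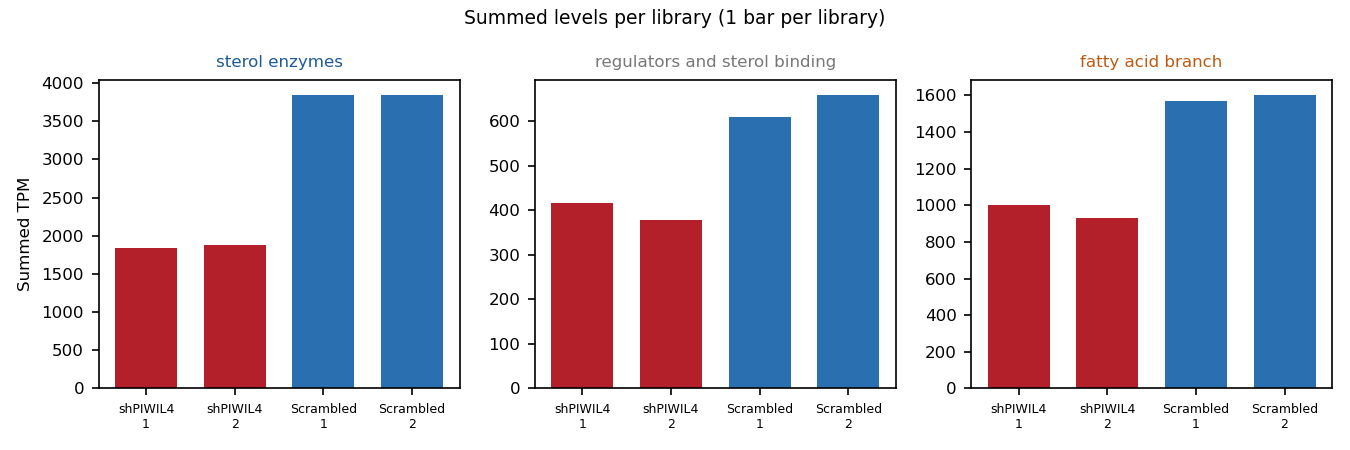
Summed TPM of the sterol enzymes, the regulators and sterol-binding genes, and the fatty acid branch, with 1 bar for each library and an axis of its own for each group of genes. The shPIWIL4 bars (red) are lower than the Scrambled bars (blue) in each panel, with 1835 and 1878 TPM against 3847 and 3844 TPM for the sterol enzymes.

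The spread between shPIWIL4 libraries 1 and 2 was uneven among the members. In 6 members with a mean of at least 100 counts (FASN, MVD, SREBF1, MVK, TM7SF2 and LSS) they differed by more than 1.2-fold in TPM, with library 1 higher in all 6. Between Scrambled libraries 1 and 2 the same 6 genes differed the other way, library 2 being higher. These 6 genes had transcripts with 58.2% to 65.3% G and C, against a median of 47.5% for the other members (range 34.2% to 62.3%; longest GENCODE v29 transcript). Across 9251 genes of at least 10 CPM, the difference between shPIWIL4 libraries 1 and 2 had a Spearman rho of 0.48 with GC content, and that between Scrambled libraries 1 and 2 a rho of -0.14. The difference between the groups had a rho of -0.0057. With a GC offset for each library, added after the data were seen, 18 sterol enzymes were lower and 1 higher, 6 fatty acid genes were lower, GGPS1 was called lower (-0.26), and FASN had a log2 fold change of 0.040.

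Several members share exonic bases with another gene in the tables, by GENCODE v29, and the strand setting of the counting is not given. ACAT2 shares 397 exonic bases with TCP1 on the opposite strand, and TCP1 had 29982 and 34852 counts in shPIWIL4 and 15262 and 23937 in Scrambled, a rise of 0.43. It also shares 1141 exonic bases (26.5%) with SOD2 on the opposite strand, which had 1551 and 1613 counts in shPIWIL4 and 1070 and 1813 in Scrambled. FDPS shares 18.6% of its exonic bases with RUSC1-AS1 on the opposite strand, which had 4270 and 4990 counts in shPIWIL4 and 6925 and 10709 in Scrambled. GGPS1 shares 37.3% with TBCE on the same strand, IDI1 14.8% with IDI2-AS1, and FADS1 and FADS2 share 490 bases with each other. The part of shared reads in these values was not tested.

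Other lipid genes were called in both directions. The counts in the lists that follow stand beside 28.7% higher and 29.1% lower among all genes tested. Among 13 genes that process or degrade parts of the SREBP system, 7 rose (53.8%) and 1 fell (7.69%), with a median log2 fold change of 0.39. The gene that fell was INSIG2, the other retention protein, at 15.2 TPM on average in shPIWIL4 and 29.7 TPM in Scrambled (-1.02). MBTPS2, the site-2 protease that releases SREBP, rose by 0.75, and ERLIN2, which takes part in sterol-driven degradation, rose by 0.64. Of 12 accessory genes of sterol synthesis, 4 were higher (33.3%) and 5 lower (41.7%). Their median was 0.029, with a negative value under upper-quartile factors (-0.092) and with library totals (-0.016). CYB5A, an electron donor to sterol and lipid oxidases, rose by 1.63, PGRMC1, a heme-binding partner of CYP51A1, fell by 0.97, and ACAT1, the mitochondrial thiolase, rose by 0.80 while the cytosolic ACAT2 fell. LBR (0.32) and CYB5R3 (0.36) were the other rises, and MMAB (-0.47), ERG28 (-0.42) and EBPL (-0.42) were among the other falls. Of 15 genes that use isoprenoids outside sterols, 6 rose and 3 fell (40% and 20%), with a median of 0.17. Under upper-quartile scaling 4 rose and 3 fell, with a median of 0.045. The rises included DHDDS for dolichol (0.84), COQ2 for ubiquinone (0.85) and ICMT for prenylated proteins (0.61). The falls were in CHML (-0.41), PGGT1B (-0.34) and RABGGTB (-0.25), which act in protein prenylation.

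Of 16 tested genes of cholesterol uptake and traffic, 12 rose (75%) and 3 fell (18.8%), with a median of 0.39, where 28.7% of all genes tested rose and 29.1% fell. VLDLR, a lipoprotein receptor, averaged 229.7 TPM in shPIWIL4 and 76.9 TPM in Scrambled (1.53). NCEH1, a cholesteryl ester hydrolase, averaged 20.6 TPM in shPIWIL4 and 5.70 TPM in Scrambled (1.81), and LIPA, the lysosomal acid lipase, rose by 0.89. The 3 that fell were the endocytic receptor gene LRP1 (-0.84), MYLIP, whose product degrades lipoprotein receptors (-0.56), and the sterol transporter gene GRAMD1A (-0.51). Under upper-quartile scaling this list had 9 rises and 3 falls. Of 7 genes of liver X receptors and efflux, 5 rose (71.4%) and 1 fell (14.3%). The efflux transporter gene ABCA1 averaged 31.7 TPM in shPIWIL4 and 5.28 TPM in Scrambled (2.54), and ABCG1 4.45 TPM in shPIWIL4 and 1.65 TPM in Scrambled (1.41). PLTP, a phospholipid transfer protein, rose by 0.81, SMPDL3A by 1.28 and LPCAT3, a phospholipid acyltransferase, by 0.57. NR1H3 was not called (0.13), and the receptor gene NR1H2 fell by 0.40, with no call for NR1H2 under DESeq2 size factors or library totals.

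**Figure D4:**
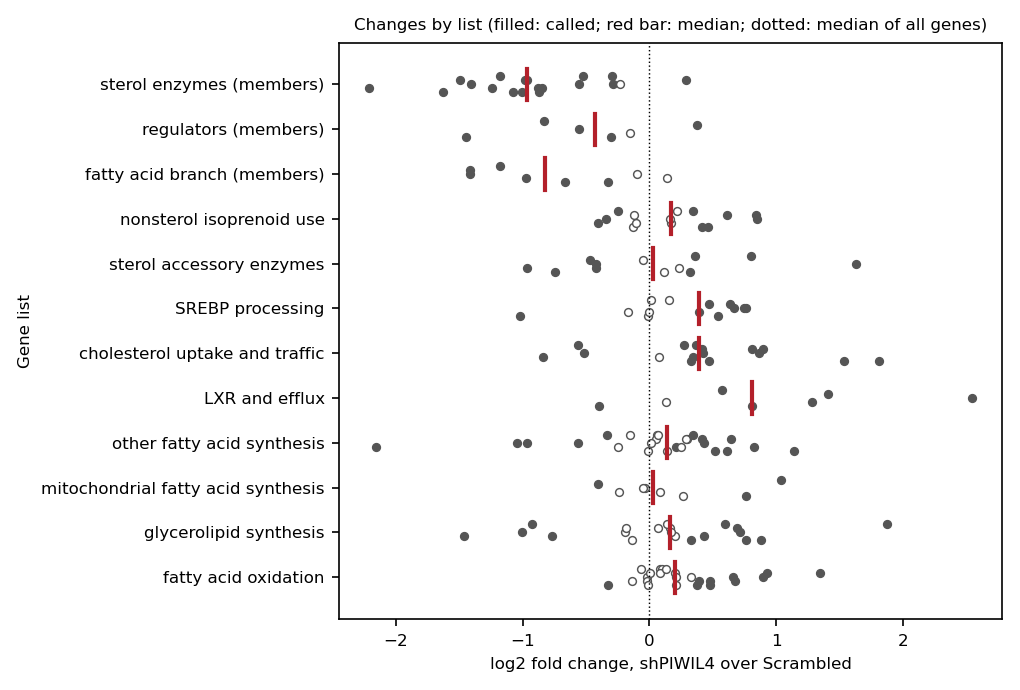
Log2 fold change, shPIWIL4 over Scrambled, of the tested genes of the 3 groups of members (top rows) and of 9 further lists of lipid genes. Filled points were called, red bars are the medians, and the dotted line is the median of all genes tested; the medians of the members' groups are -0.97, -0.43 and -0.82, while those of the other lists lie between 0.027 and 0.81.

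In the other genes of fatty acid synthesis 10 of 25 tested rose (40%) and 5 fell (20%), with a median of 0.14, where 28.7% of all genes tested rose and 29.1% fell. ACSS2, which makes acetyl-CoA from acetate, averaged 34.7 TPM in shPIWIL4 and 149.9 TPM in Scrambled, and fell by 2.15, nearly as far as HMGCS1. FADS3 (-1.04), ELOVL2 (-0.96), HSD17B12 (-0.56) and SLC25A1 (-0.34) also fell. ACACB, the mitochondrial acetyl-CoA carboxylase whose malonyl-CoA restrains fatty acid oxidation, rose by 1.14, and IDH1, a source of cytosolic NADPH, by 0.83. Under upper-quartile scaling this list had 7 rises and 6 falls. In glycerolipid synthesis 8 of 20 rose (40%) and 4 fell (20%), with a median of 0.17. The list had AGPAT4 (-1.47) and the lipid droplet gene PLIN2 (-1.0031) among the falls and AGPAT3 (0.88) among the rises, and 7 calls in each direction with upper-quartile factors. GPAT2 fell by 0.76, LPIN3 fell by 0.93 and LPIN2 was not called (0.17).

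Of 24 tested genes of fatty acid oxidation 9 were higher (37.5%, against 28.7% of all genes tested), 1 was lower (ECI2, -0.33; 29.1% of all genes tested) and 14 were not called, with a median of 0.21. SLC25A20, the carnitine carrier, rose by 1.35, and the electron transfer gene ETFDH and the dienoyl-CoA reductase gene DECR1 rose by 0.93 and 0.90. In mitochondrial fatty acid synthesis 2 of 8 rose, NDUFAB1 (1.04) and MCAT (0.76), and CBR4 fell (-0.40), shares of 25% and 12.5% that lie below those of all genes tested. The median of this list was 0.027 and was negative with upper-quartile factors (-0.095) and with library totals (-0.021). Upper-quartile factors moved the median of all genes tested to -0.12, and under them 18 sterol enzymes, 6 fatty acid genes and 4 regulators were lower.

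**Figure D5:**
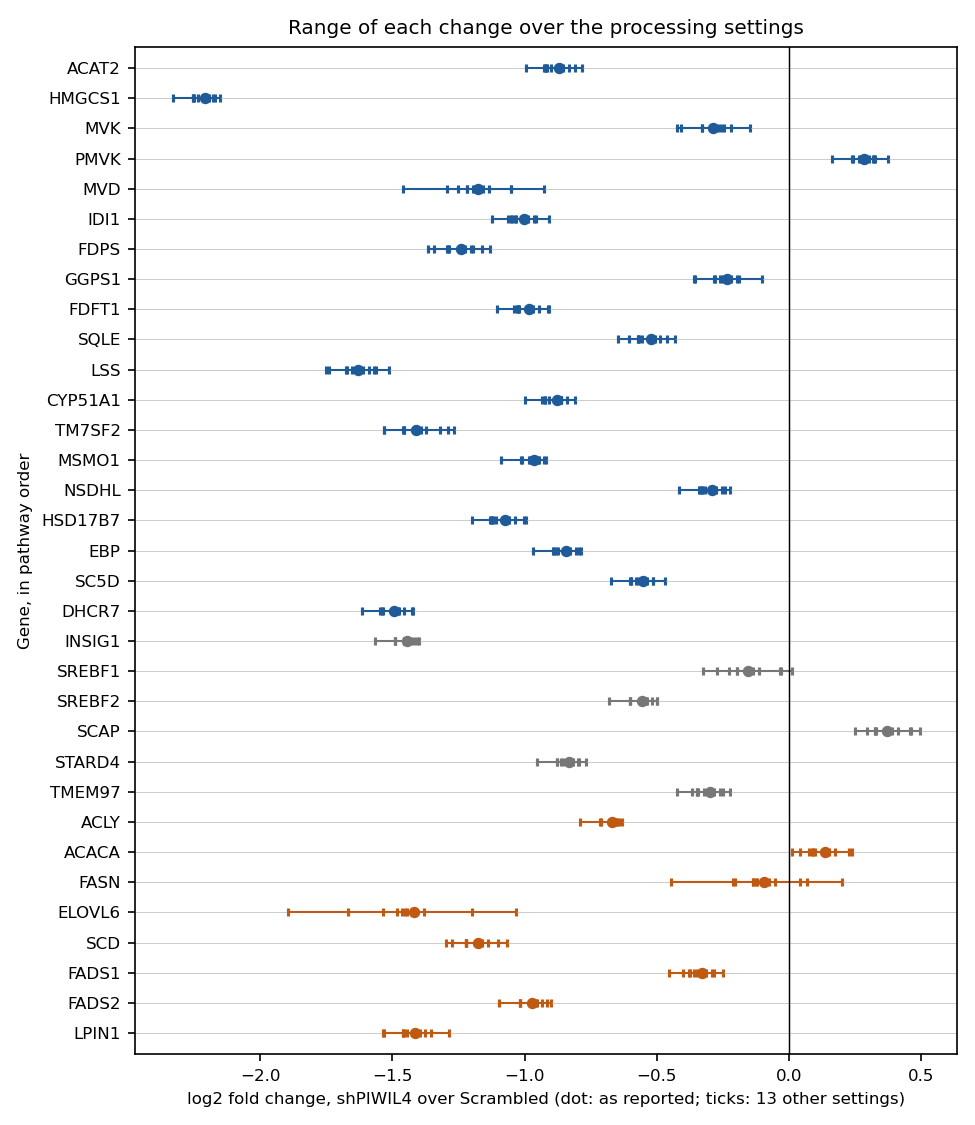
Log2 fold change of each member as reported (dot) and under each other processing setting (ticks), in pathway order with sterol enzymes in blue, regulators in grey and the fatty acid branch in orange. The ranges of 22 genes keep their call in all 13 settings, FASN spans -0.45 to 0.20, and SREBF1 reaches 0.010.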

How the data were processed

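RNA-seq tables of 4 THP-1 libraries were used. STAR, featureCounts, DESeq2 and the build hg19 are named in the submitters' processing notes. Their versions, the gene annotation and whether counting used strand are not given in the sources. Raw counts per gene were deposited by the authors, and the TPM values they deposited beside them were used for levels only. The authors' normalized table of the series was not used. The 28 gene names turned into dates by spreadsheet software were kept under those names.

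The test was that of edgeR 4.0.16 under R 4.3.3, with filterByExpr (minimum count 10, minimum total 15), TMM scaling, robust quasi-likelihood F test with group as the only term, and Benjamini-Hochberg adjustment over the 16108 genes tested. Every adjusted p is from this test, except the ELOVL6 value under DESeq2, which is from its Wald test. A gene was called under 0.05, by the adjusted p of the setting named. The standard error is the log2 fold change divided by the square root of F. The fit was also run on simulated counts with known fold changes in few genes. That run does not test the scaling where as many genes change as were called here. Depth was 31458079 to 53657246 counts per library. P-values measure the spread between these libraries, which may be technical. The chi-square per gene between replicates was 27.9 (shPIWIL4) and 7.89 (Scrambled), above sampling noise. Under TMM scaling a direction is set against the bulk of genes tested.

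The members and the 9 other lists (148 genes, all matched by name) were chosen with earlier results of these data known. Named genes are all 33 members, PIWIL4, the markers, up to 3 called genes of each list with the smallest p, and the members of any count of 5 or fewer; LPIN2 was named after its value was seen, and some genes under this rule are not reported here. Other settings tried were other scalings, filters, DESeq2 1.42.0, a replicate block, a GC offset and leaving out each library.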

Additional observations from a re-analysis of the deposited data

How the results depend on the processing

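Over 13 other settings, 22 of the 33 genes kept their direction and call, and 11 changed in at least 1. The sign turned for FASN without Scrambled library 2 (0.070), without shPIWIL4 library 2 (0.20) and with the GC offset (0.040), and for SREBF1 without shPIWIL4 library 2 (0.010). Without shPIWIL4 library 1, FASN (-0.45) and SREBF1 (-0.32) were called lower. Leaving out 1 library at a time gave 15 to 18 sterol enzymes called, with 0 to 1 higher and 15 to 17 lower; 4 to 8 fatty acid genes called, with 0 to 1 higher and 4 to 7 lower; 3 to 6 regulators called, with 0 to 1 higher and 3 to 5 lower; 7085 to 10175 of all genes called, with 3560 to 5164 higher and 3525 to 5011 lower; and a PIWIL4 change of -1.12 to -1.05. PMVK was the sterol enzyme called higher, and this count was 0 with upper-quartile factors and with the replicate block. With upper-quartile factors 37.6% of all calls were higher, against 49.7% with TMM. DESeq2 called 16 sterol enzymes lower and 1 higher, and 5 fatty acid genes lower. With the replicate block, 15 sterol enzymes, 5 fatty acid genes and 3 regulators were lower, the calls of MVK, PMVK, NSDHL, TMEM97 and FADS1 (-0.33) being lost. The titles number the libraries of each group exp. rep1 and exp. rep2. The labels do not say that equal numbers mark a shared culture or day, and same-numbered deviations had a correlation of -0.48 over 16108 genes. With the crossed pairing, added after the data were seen, 11369 genes were called, 18 sterol enzymes were lower and 1 higher, 6 fatty acid genes were lower and 1 higher, and 5 regulators were lower and 1 higher. The cause of these changes was not tested. Depth limits ELOVL6, which had 5 to 17 counts, while every other member had at least 495 counts in each library.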
